A study of Mus musculus with 30 samples.

Results

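The immunoproteasome genes Psmb8, Psmb9 and Psmb10 and the PA28 activator genes Psme1 and Psme2 were examined across 4 genotypes of the mouse dendritic cell line DC3.2, with and without interferon. The 5 genes were chosen by name from 31427 gene symbols, and all 5 were among the 11842 genes tested. Total RNA was sequenced in 24 replicated libraries, 12 groups of 2, and in 6 libraries without a replicate. The genotypes are DKO, in which both transcription factors IRF1 and IRF2 were targeted, IRF2KO, IRF1KO and WT. Each was harvested after 2 h of IFNα at 5000 U/mL, of IFNγ at 2 ng/mL, or of media alone. The titles carry IRF2sg for IRF2KO, IRF1sg for IRF1KO and nosg for WT. Every library has the cell line label DC3.2, but the titles write DC32R in the 24 replicated libraries and Dc3.2 in the 6 others, and whether these are the same cells is not given in the sources used here. A control for the targeting itself is not named, and whether any line is 1 clone is not given in the sources used here. The single libraries hold IRF2KO and WT cells after 2 h of IFNα, after 2 h of LPS at a dose not given in the sources used here, and at 0 h. The study asks which transcripts differ between these lines at rest and under interferon. Nothing in the labels says that the 2 libraries of a group came from separate cultures, so p-values measure only the spread between these libraries.

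The proteasome is a barrel-shaped protease that cuts ubiquitin-tagged proteins into peptides, some of which are loaded on MHC class I molecules and shown to CD8 T cells. In cells exposed to interferon, and in many resting immune cells, the catalytic subunits β1i (Psmb9), β2i (Psmb10) and β5i (Psmb8) take the places of the constitutive β1 (Psmb6), β2 (Psmb7) and β5 (Psmb5), which changes the peptides produced. PA28α (Psme1) and PA28β (Psme2) form a ring that caps the barrel and opens its gate. IRF1 is known chiefly as an activator and IRF2 as a repressor, and at some genes an activator, of interferon-regulated promoters that hold IRF elements.

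The 5 genes lie in 3 places of the genome (GRCm38, GENCODE M21). On chromosome 17, inside the MHC, Psmb9 (34181987 to 34187764, minus strand) stands head to head with the peptide transporter gene Tap1 (34187553 to 34197225, plus strand), followed by Psmb8 (34197721 to 34201454, plus strand) and the second transporter gene Tap2 (34203527 to 34216321, plus strand). On chromosome 14, Psme1 (55578123 to 55581529, plus strand) and Psme2 (55587441 to 55591113, minus strand) point towards each other. Psmb10 lies alone among them on chromosome 8 (105935735 to 105938444, minus strand). Psmb9 and Tap1 overlap at their starts, and no source used here says that the libraries keep strand, so reads from that overlap cannot be told apart.

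Levels are in TPM, which divides each transcript's share of a library by its length and drops the read totals; depth is therefore unknown. Each replicated library had 10911 to 11101 genes at 1 TPM or more, and replicates correlated with Pearson r from 0.991 to 0.996 across genes, which are not independent replicates. Of 10 dendritic cell markers, 6 reached 1 TPM in at least 1 library, with a summed level of 4173 to 5972 TPM. Most of that sum was Cd74 (3623 to 5097 TPM), followed by H2-Aa (368 to 546), while Zbtb46 had only 0.37 to 2.35. Flt3, Xcr1, Clec9a and Ccr7 stayed below 1 TPM in every library. The macrophage and monocyte markers found in the table, 5 of 6, also reached 1 TPM, with a summed level of 2297 to 2705 TPM in DKO, 2387 to 2811 in IRF2KO, 2726 to 3210 in IRF1KO and 2704 to 3234 in WT cells. The markers did not move together with genotype. Across treatments the dendritic sum was 5028 to 5972 TPM in DKO and 4238 to 5501 in IRF2KO cells. It was 4680 to 5022 TPM in IRF1KO and 4173 to 5245 in WT cells. Cd74 had 4163 to 5097 TPM in DKO and 3623 to 4316 in WT cells. The ranges of Cd68, Csf1r, Fcgr1, Mertk, Batf3 and H2-Aa overlapped between the genotypes. Itgax and Lyz2 were lower in DKO and IRF2KO than in IRF1KO and WT cells. Over the 3 treatments, Itgax, the integrin CD11c, had 31.6 to 39.7 TPM in DKO, 35.1 to 45.8 in IRF2KO, 53.7 to 71.3 in IRF1KO and 52.2 to 66.0 in WT cells. Lyz2, a lysozyme of myeloid cells, had 1119 to 1442 TPM in DKO, 1211 to 1476 in IRF2KO, 1509 to 1876 in IRF1KO and 1500 to 1906 in WT cells. The part of the markers in the results was not tested. None of the 3 lymphocyte and 2 fibroblast and stromal markers reached 1 TPM. In media, Irf1 averaged 32.1 ± 5.56 TPM in DKO, 27.1 ± 5.0 in IRF1KO and 21.1 ± 1.99 in WT (SD, n = 2 each). Irf2 averaged 20.5 ± 0.59 TPM in DKO, 17.8 ± 0.59 in IRF2KO and 24.3 ± 1.22 in WT. An edit need not lower an mRNA, so these levels do not check the labels.

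The 5 transcripts were present in every library. Psmb8 was the most abundant, with 81.1 TPM in its lowest library, a median of 183 and 532 TPM in its highest. Psme2 had a median of 148 TPM (49.6 to 249.7), Psmb10 of 94.3 (46.5 to 228), Psme1 of 83.3 (23.5 to 147) and Psmb9 of 32.0 (2.91 to 81.7). Psmb9 varied most, with a highest library 28.1 times its lowest, against 4.90 to 6.56 times for the other 4 genes. The lowest library of each of the 5 genes was a DKO library in media. The highest was an IRF2KO library under IFNα for Psmb8 and Psmb10, but a WT library for Psme1 and Psme2 (IFNα) and Psmb9 (IFNγ).

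**Figure D1:**
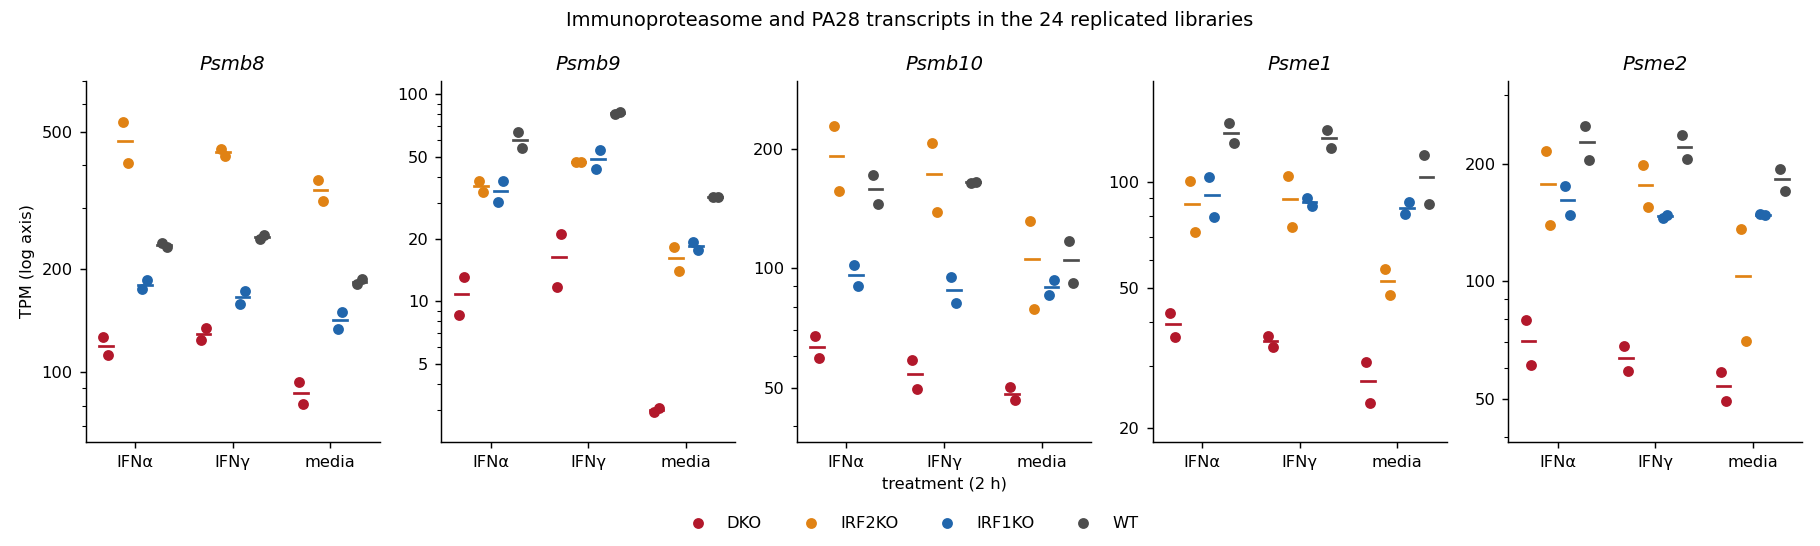
TPM of each gene (log axis) in the 24 replicated libraries, by treatment and, within it, by genotype; points are libraries and short lines are group means. The DKO points lie below those of the other 3 genotypes in each treatment, and the IRF2KO points of Psmb8 lie above all others, from 315 to 532 TPM.

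The ladder of group means differed between the genes. For Psmb8 the genotypes came in the order DKO, IRF1KO, WT and IRF2KO in every treatment, and the 3 IRF2KO groups (means of 468 TPM under IFNα, 436 TPM under IFNγ and 339 TPM in media) stood above the highest WT group (247 TPM under IFNγ). For Psmb9 the order in media was DKO (2.98 TPM), IRF2KO (16.1), IRF1KO (18.5) and WT (32.0), with overlapping libraries in IRF2KO (13.97 and 18.3) and IRF1KO (17.8 and 19.3). Of the 11 steps between neighbouring group means, the libraries were apart in 7 for Psmb8, 6 for Psmb9, 4 for Psme1, and 3 each for Psmb10 and Psme2. The other steps lie within the spread of the libraries. Here and below, apart means only that the libraries of 2 groups do not overlap. With 2 libraries a group this is common without a true difference, and its share over all genes was not counted.

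In DKO cells all 5 transcripts were lower than in WT cells in every treatment. Fold changes are given as log2 differences of TPM + 1 with their SE, tested with limma, and a gene was called at a Benjamini-Hochberg adjusted p under 0.05 over all genes tested; the added 1 understates the change of low values. The counts were 5 of 5 lower under IFNα, 5 of 5 under IFNγ and 5 of 5 in media, where 0.684%, 1.02% and 0.532% of all genes tested were called lower. In bulk RNA, fewer cells that express a gene and less RNA per cell cannot be told apart.

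Psmb9, the β1i subunit, differed most. It had 2.91 and 3.05 TPM in DKO cells in media, against 31.9 and 32.1 TPM in WT cells (−3.05 ± 0.22, adjusted p = 6.1e-07). Under IFNα it had 8.60 and 13.2 TPM in DKO cells, against 65.5 and 55.0 TPM in WT cells (−2.39 ± 0.22, adjusted p = 8.3e-06). Under IFNγ it had 11.8 and 21.1 TPM in DKO cells, against 79.9 and 81.7 TPM in WT cells (−2.28 ± 0.22, adjusted p = 1.4e-05). The highest DKO library under interferon, at 21.1 TPM, was still below both WT libraries in media.

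The PA28 pair moved by like amounts. Psme1 had 30.8 and 23.5 TPM in DKO cells in media, against 119.7 and 86.6 TPM in WT cells (−1.88 ± 0.20, adjusted p = 5.2e-05). Psme2 had 58.6 and 49.6 TPM in DKO cells in media, against 194 and 170.2 TPM in WT cells (−1.73 ± 0.25, adjusted p = 0.0016). For both genes the DKO and WT libraries were apart in each treatment. Under IFNα the differences were −1.79 ± 0.20 for Psme1 and −1.68 ± 0.25 for Psme2, and under IFNγ −1.89 ± 0.20 and −1.77 ± 0.25.

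Psmb10, the β2i subunit, had 50.1 and 46.5 TPM in DKO cells in media, against 117 and 92.0 TPM in WT cells (−1.09 ± 0.23, adjusted p = 0.038). Psmb8, the β5i subunit, had 93.7 and 81.1 TPM in DKO cells in media, against 180.4 and 187 TPM in WT cells (−1.07 ± 0.12, adjusted p = 9.2e-05). The groups were apart for both genes here and under each interferon. Psmb10 had −1.31 ± 0.23 under IFNα and −1.59 ± 0.23 under IFNγ, and Psmb8 had −0.97 ± 0.12 and −0.93 ± 0.12. Of the 15 calls 2 rested on single libraries, both for Psmb10. In media the call was lost without any 1 of the 4 libraries (−1.26 to −0.92). Under IFNα it was lost without replicate 2 of DKO or replicate 1 of WT (−1.43 to −1.19 over the 4 fits). These fits did not take the replicate number into account. With that number in the fit, the SE of Psmb10 between 2 groups was 0.16 in place of 0.23. With only the compared groups in the fit, 12 of the 15 were called, without Psmb10 in media (adjusted p = 0.098) and Psmb8 under IFNα (0.088) and IFNγ (0.087), and Psmb10 in media was also lost without the filter on low values (adjusted p = 0.070).

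**Figure D2:**
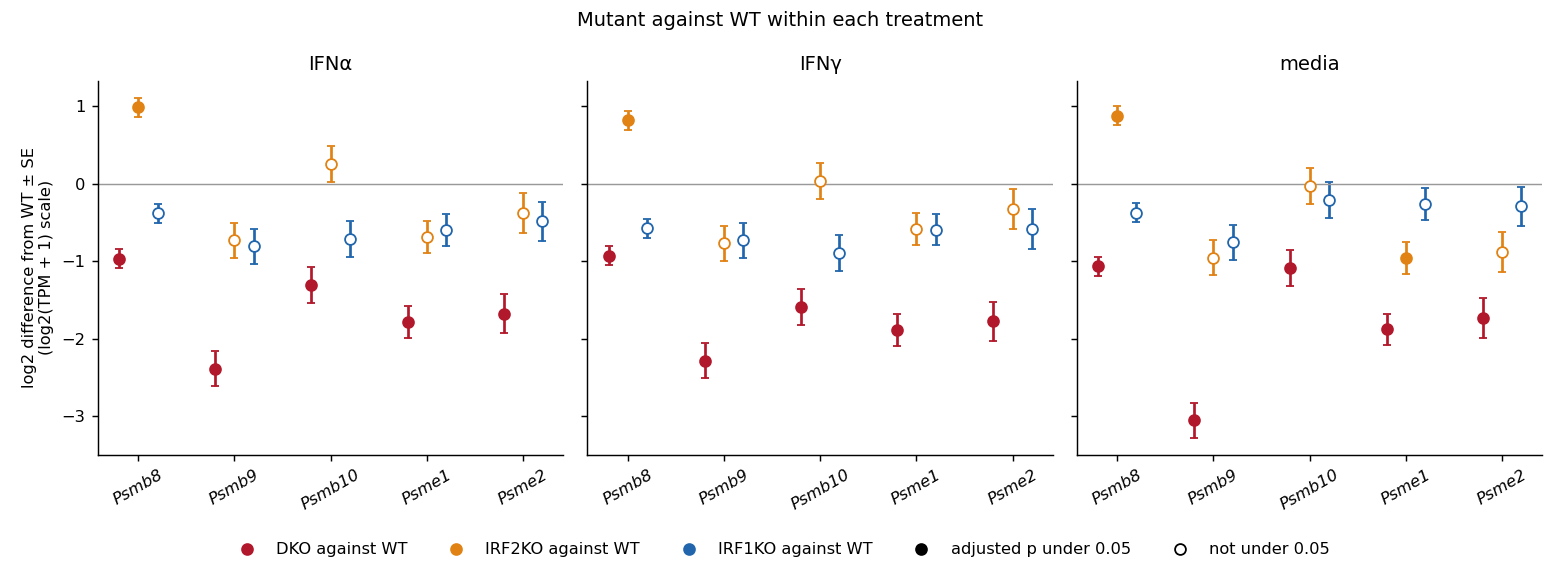
Log2 difference from WT (± SE, log2(TPM + 1) scale) of the 5 genes in DKO, IRF2KO and IRF1KO cells under IFNα, under IFNγ and in media; filled points have an adjusted p under 0.05 (limma). All DKO values are filled and below 0, from −3.05 to −0.93, while Psmb8 in IRF2KO cells is filled and above 0 in the 3 panels.

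In IRF2KO cells Psmb8 was higher than in WT cells in every treatment, and no other member was called higher. Psmb8 had 532 and 404 TPM in IRF2KO cells under IFNα, against 238 and 231 TPM in WT cells (0.98 ± 0.12, adjusted p = 2.2e-04). It had 446 and 425 TPM in IRF2KO cells under IFNγ, against 244 and 250.4 TPM in WT cells (0.82 ± 0.12, adjusted p = 0.0020). In media it had 363 and 315 TPM in IRF2KO cells, against 180.4 and 187 TPM in WT cells (0.88 ± 0.12, adjusted p = 9.5e-04). The lowest IRF2KO library in media thus lay above the highest WT library under either interferon. The count called higher was 1 of 5 in each treatment, where 0.625% of genes under IFNα, 0.312% under IFNγ and 0.279% in media were called higher. All 3 calls were lost with only the 2 compared groups in the fit, at the same log2 differences (adjusted p = 0.19 under IFNα, 0.12 under IFNγ and 0.12 in media).

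Among the other subunits the IRF2KO values lay mostly below those of WT. Psme1 had 56.6 and 47.7 TPM in IRF2KO cells in media, against 119.7 and 86.6 TPM in WT cells, and was called lower (−0.96 ± 0.20, adjusted p = 0.035), as 1 of 5 members where 0.557% of genes were called lower. Psmb9 had 18.3 and 13.97 TPM in IRF2KO cells in media, against 31.9 and 32.1 TPM in WT cells (−0.96 ± 0.22, adjusted p = 0.069). Psme2 had 136 and 70.5 TPM in IRF2KO cells in media, against 194 and 170.2 TPM in WT cells (−0.88 ± 0.25, adjusted p = 0.22). For these 3 genes the libraries of IRF2KO and WT were apart in media, a pattern whose share over all genes was not counted. Psmb10 overlapped, with 132 and 78.9 TPM in IRF2KO cells and 117 and 92.0 TPM in WT cells (−0.03 ± 0.23, 95% interval −0.52 to 0.46).

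The titles give libraries numbered 1 a common code and libraries numbered 2 another, in the form of dates, and replicate 2 was below replicate 1 in 11 of 12 groups for Psme1 and Psme2 and in 10 of 12 for Psmb10, by a median of 0.23 to 0.24 log2 units. The gap was widest in IRF2KO cells in media for Psme2 and Psmb10. Once the fit took the replicate number as a block, 3 of 5 members were called lower in media, where 1.17% of genes then were, adding Psmb9 (adjusted p = 0.035) and Psme2 (adjusted p = 0.011), and Psme1 was also called lower under IFNα (−0.69, adjusted p = 0.0076) and IFNγ (−0.59, adjusted p = 0.024), where 0.701% and 1.38% of genes were. Without the block, 0 of 5 were called lower under either interferon, where 0.346% and 0.49% of genes were. The call of Psme1 in media was lost with only the compared groups in the fit (adjusted p = 0.31), with TMM scaling (−0.88), without the filter on low values (adjusted p = 0.064), and without replicate 1 or 2 of IRF2KO or replicate 1 of WT (−1.19 to −0.73), while that of Psme2 was gained without replicate 1 of IRF2KO (−1.35).

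In IRF1KO cells no member was called different from WT in any treatment (limma), although all 15 log2 differences were below 0, from −0.89 to −0.21. At an unadjusted p under 0.05 there were 4 of 5 members under IFNα, 5 of 5 under IFNγ and 2 of 5 in media, where 2.27%, 2.42% and 2.58% of all genes tested passed it. Few genes were called in these comparisons at all, 0.177% under IFNα, 0.236% under IFNγ and 0% in media. The values furthest from 0 were those of Psmb10 under IFNγ, with 95.2 and 81.5 TPM in IRF1KO cells against 164 and 165 TPM in WT cells (−0.89 ± 0.23, adjusted p = 0.33), and of Psmb9 under IFNα, with 30.2 and 38.0 TPM in IRF1KO cells against 65.5 and 55.0 TPM in WT cells (−0.81 ± 0.22, adjusted p = 0.79). In the fit blocked on the replicate number, Psmb10 (adjusted p = 0.018) and Psmb8 (−0.58, adjusted p = 0.049) were called lower under IFNγ, as were 0.355% of genes. In media the 95% interval of Psme2 ran from −0.83 to 0.25 and that of Psme1 from −0.70 to 0.17, so changes of that size were not excluded by these libraries.

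Set against the single mutants, the DKO libraries were below both for all 5 genes in each treatment. The share of all genes with this pattern was not counted. Against IRF2KO, 5 of 5 members were called lower under IFNα, 5 of 5 under IFNγ and 2 of 5 in media, where 0.363%, 0.464% and 0.101% of genes were. Psmb8 had the difference furthest from 0 under IFNα, with 127 and 113 TPM in DKO cells against 532 and 404 TPM in IRF2KO cells (−1.95 ± 0.12, adjusted p = 5.0e-07). Psmb9 in media had 2.91 and 3.05 TPM in DKO cells against 18.3 and 13.97 TPM in IRF2KO cells (−2.09 ± 0.22, adjusted p = 3.2e-04). In that comparison the median of all genes was 0.13, and with TMM scaling, which brings it to 0.01, Psmb8 moved to −2.08 and Psmb9 to −2.21. Blocking on the replicate number, 4 of 5 were called lower in media, where 0.169% of genes were, adding Psmb10 (−1.06, adjusted p = 0.0068) and Psme1 (−0.92, adjusted p = 0.0031).

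Against IRF1KO, 4 of 5 members were called lower under IFNα, 3 of 5 under IFNγ and 4 of 5 in media, where 0.473%, 0.549% and 0.456% of genes were. Psme1 had 30.8 and 23.5 TPM in DKO cells in media, against 81.2 and 87.9 TPM in IRF1KO cells (−1.61 ± 0.20, adjusted p = 3.5e-04). Psmb9 in media had 2.91 and 3.05 TPM in DKO cells, against 19.3 and 17.8 TPM in IRF1KO cells (−2.29 ± 0.22, adjusted p = 1.8e-05). Psmb10 was called in none of the 3 treatments (−0.59 under IFNα, −0.70 under IFNγ and −0.88 in media), and with the block it was called in media and under IFNγ, where 0.794% and 1.23% of genes were called lower. Psmb8 under IFNγ was not called (−0.35 ± 0.12, adjusted p = 0.33). Several of these calls did not hold when 1 library was left out: those of Psme2 in the 3 treatments and of Psmb8 under IFNα were lost without any 1 of the 4 libraries (−1.56 to −1.32, −1.38 to −1.002 and −1.29 to −1.09 for Psme2 in media, IFNα and IFNγ, and −0.67 to −0.50 for Psmb8). Those of Psmb8 in media (−0.79 to −0.59) and Psme1 under IFNα (−1.38 to −0.999) were lost without replicate 2 of DKO or without 1 IRF1KO library, replicate 2 and replicate 1 in that order.

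Against IRF2KO the calls that rested on single libraries were those of the PA28 genes and 1 of Psmb10. Under IFNα, Psme1 (−1.34 to −0.86) and Psme2 (−1.61 to −0.99) lost theirs without replicate 1 or 2 of DKO or replicate 1 of IRF2KO, and Psmb10 (−1.83 to −1.30) without replicate 1 of IRF2KO. Under IFNγ, Psme1 (−1.54 to −1.06) and Psme2 (−1.63 to −1.27) lost theirs without replicate 2 of DKO or replicate 1 of IRF2KO. The calls of Psmb8 and Psmb9 against IRF2KO were kept without each library in turn. With only the compared groups in the fit, 6 of the 23 calls of DKO against a single mutant were kept. Against IRF2KO these were Psmb8 and Psmb9 in media and Psmb8 under IFNγ, and against IRF1KO they were Psmb9, Psme1 and Psme2 in media. Under IFNα none was kept (adjusted p of 0.12 to 0.84). Without the filter on low values, Psme2 lost its calls against IRF2KO under IFNα (adjusted p = 0.063) and against IRF1KO under IFNα (0.071) and IFNγ (0.066).

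The difference in Psmb8 between lines with and without targeted IRF1 was larger where IRF2 was targeted too. The targeting and other differences between the lines cannot be told apart. Psmb8 had a log2 difference of −1.94 between DKO and IRF2KO and of −0.37 between IRF1KO and WT in media. The difference between these, a test of non-additivity, was −1.57 ± 0.17 (adjusted p = 0.0015, limma). The same test gave −1.57 ± 0.17 under IFNα (adjusted p = 0.0015) and −1.17 ± 0.17 under IFNγ (adjusted p = 0.015). In each treatment 1 of 5 members was called lower, where 0.0169% of genes were in media, 0.0169% under IFNα and 0.0338% under IFNγ. The values of the other 4 genes were also below 0, from −1.34 (Psmb9 in media) to −0.50 (Psme1 under IFNα), with adjusted p of 0.94 to 1. Members at an unadjusted p under 0.05, Psmb8 included, numbered 4 of 5 under IFNα, 5 of 5 under IFNγ and 4 of 5 in media. Of all genes tested, 1.88%, 1.66% and 2.7% passed it, in that order. All 3 calls of Psmb8 were lost when only the 4 groups of the treatment were in the fit (adjusted p = 0.56 under IFNα, 0.30 under IFNγ and 0.10 in media). The call under IFNγ was lost in 7 of 8 fits that left out 1 library, all but the one without replicate 2 of DKO (−1.23 to −1.11), and the median of all genes was 0.11 in media, where TMM scaling moved Psmb8 to −1.68.

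Psmb9 held 6 of the 7 calls between interferon and media in the fit without the replicate block. With the block there were 14 calls, and those added were of Psmb10, Psme1 and Psme2, as given below. After IFNγ Psmb9 was higher than in media in the 4 genotypes. It had 79.9 and 81.7 TPM under IFNγ in WT cells, against 31.9 and 32.1 TPM in media (1.31 ± 0.22, adjusted p = 0.0039). In DKO cells it had 11.8 and 21.1 TPM under IFNγ, against 2.91 and 3.05 TPM in media (2.08 ± 0.22, adjusted p = 4.8e-05). In IRF2KO cells the difference was 1.499 ± 0.22 (47.1 and 46.9 TPM under IFNγ, against 18.3 and 13.97 TPM in media) and in IRF1KO cells 1.34 ± 0.22 (43.4 and 53.7 TPM, against 19.3 and 17.8 TPM). The IFNγ and media libraries were apart in each genotype, and the IRF1KO call was lost without replicate 2 of either IRF1KO group (1.18 to 1.49).

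After IFNα Psmb9 was called higher in DKO cells (8.60 and 13.2 TPM under IFNα, against 2.91 and 3.05 TPM in media; 1.55 ± 0.22, adjusted p = 7.2e-04) and in IRF2KO cells (38.0 and 33.7 TPM, against 18.3 and 13.97 TPM; 1.12 ± 0.22, adjusted p = 0.013). In WT cells it had 65.5 and 55.0 TPM under IFNα, against 31.9 and 32.1 TPM in media, and missed the threshold (0.89 ± 0.22, adjusted p = 0.10). In IRF1KO cells it had 30.2 and 38.0 TPM under IFNα, against 19.3 and 17.8 TPM in media (0.84 ± 0.22, adjusted p = 0.18). The WT value was called with a pseudocount of 5 (0.82, adjusted p = 0.047) and with TMM scaling (0.95, adjusted p = 0.044). The IRF2KO call was lost without replicate 1 or 2 of its IFNα group or replicate 2 of its media group (0.93 to 1.30). With only the compared groups in the fit, the calls with IFNα were lost (adjusted p = 0.18 in DKO and 0.084 in IRF2KO), and the 4 of Psmb9 with IFNγ were kept.

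Psmb8 rose with IFNγ in DKO cells, with 124 and 134 TPM under IFNγ against 93.7 and 81.1 TPM in media (0.56 ± 0.12, adjusted p = 0.042), a call that was lost without any 1 of the 4 libraries (0.46 to 0.66), with only the compared groups in the fit (adjusted p = 0.53) and without the filter on low values (adjusted p = 0.052). With IFNα the DKO value of Psmb8 was called with TMM scaling (0.54, adjusted p = 0.037). In WT cells Psmb8 had 244 and 250.4 TPM under IFNγ, against 180.4 and 187 TPM in media (0.43 ± 0.12, adjusted p = 0.16). Psmb10 in WT cells had 164 and 165 TPM under IFNγ, against 117 and 92.0 TPM in media (0.66 ± 0.23, adjusted p = 0.48). These groups were apart although the differences were not called. With 2 libraries a group, being apart is weak on its own, and its share over all genes was not counted.

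Counted over genes, the calls higher with IFNα were 1 of 5 in DKO, 1 of 5 in IRF2KO, 0 of 5 in IRF1KO and 0 of 5 in WT, where 0.971%, 1.38%, 0.811% and 1.04% of genes were called higher. With IFNγ they were 2, 1, 1 and 1 of 5, where 0.701%, 1.04%, 1.1% and 1.2% were. At an unadjusted p under 0.05 with IFNα there were 3 of 5 members in DKO, 5 in IRF2KO, 2 in IRF1KO and 3 in WT cells. Of all genes, 5.85%, 6.14%, 5.29% and 4.7% passed it. For IFNγ the numbers were 2, 5, 1 and 3 of 5, where 6.29%, 6.53%, 5.42% and 4.68% of genes passed it. Blocking on the replicate number made 14 calls of the 7: in IRF2KO cells Psmb10, Psme1 and Psme2 were added with IFNα (0.88, 0.70 and 0.81) and with IFNγ (0.72, 0.75 and 0.83), and in WT cells Psmb10 with IFNγ (adjusted p = 0.048). With the block 1.8% of genes were called higher with IFNα and 1.82% with IFNγ in IRF2KO cells, and 1.74% with IFNγ in WT cells.

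In IRF2KO cells Psme1 had 101 and 71.9 TPM under IFNα, against 56.6 and 47.7 TPM in media, and Psme2 had 215 and 139 TPM, against 136 and 70.5 TPM. In IRF1KO cells the same genes overlapped between IFNα and media, with 0.10 ± 0.20 for Psme1 and 0.12 ± 0.25 for Psme2. Without replicate 1 of IRF2KO in media, Psme2 was called with IFNα (1.28) and with IFNγ (1.30) and Psmb10 with IFNα (1.25). Without replicate 2 of IRF2KO under IFNα, Psmb10 (1.15) and Psmb8 (0.65) were called.

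**Figure D3:**
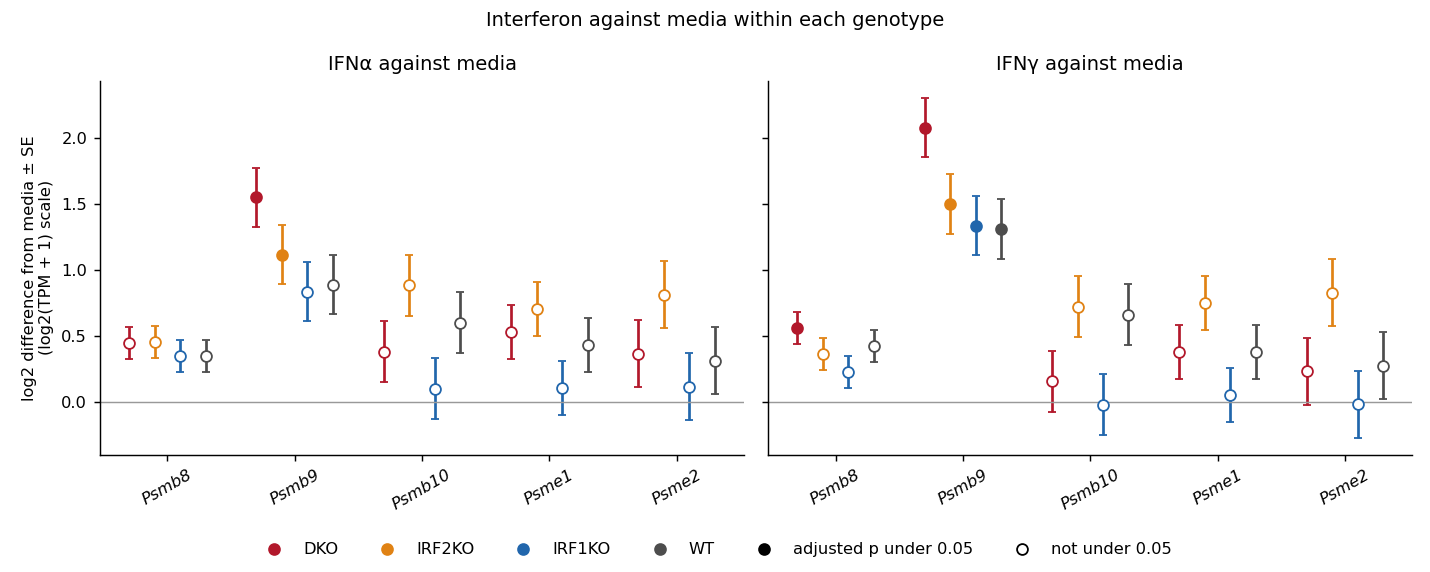
Log2 difference between interferon and media (± SE, log2(TPM + 1) scale) of the 5 genes in each genotype, for IFNα and IFNγ; filled points have an adjusted p under 0.05 (limma). Psmb9 is filled in the 4 genotypes with IFNγ, from 1.31 to 2.08, and the other 4 genes lie between −0.02 and 0.88.

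No difference between the mutants' interferon responses and that of WT was called for any member (0 of 30 by limma). With IFNγ, called genes of either direction made up 0.0929% in DKO, 0.0338% in IRF2KO and 0.0844% in IRF1KO, and with IFNα 0.0844%, 0.0676% and 0.0253%. At an unadjusted p under 0.05 there was 1 of 30, Psmb9 with IFNγ in DKO. Of all genes tested, 2.09% passed it with IFNγ in DKO, 1.48% in IRF2KO and 1.48% in IRF1KO. With IFNα 1.4%, 3.33% and 1.71% of genes passed it, in that order. For Psmb9 the IFNγ response in DKO exceeded that in WT by 0.77 (95% interval 0.09 to 1.44, adjusted p = 1), and the IFNα response by 0.66 (−0.01 to 1.34). For Psme2 the IFNγ response in IRF2KO exceeded that in WT by 0.55 (−0.21 to 1.32). For Psmb8 the 6 differences lay between −0.20 and 0.14, for Psme1 between −0.33 and 0.37, and for Psmb10 between −0.68 (IFNγ in IRF1KO) and 0.28. The intervals of Psmb9 and Psme2 span responses equal to that of WT, or nearly so, and larger responses.

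No member was called between IFNγ and IFNα in any genotype (0 of 20, limma). Called genes made up 0.904% in DKO, 0.819% in IRF2KO, 0.946% in IRF1KO and 0.768% in WT. At an unadjusted p under 0.05 there were 2 of 20, Psmb9 in DKO and in IRF1KO cells. Of all genes tested, 5.22% passed it in DKO, 5.32% in IRF2KO, 5.17% in IRF1KO and 4.49% in WT. Psmb9 had the largest of these differences, from 0.38 ± 0.22 in IRF2KO to 0.53 ± 0.22 in DKO, with IFNγ above IFNα in each genotype. Psmb8 lay between −0.12 and 0.11, Psme1 between −0.15 and 0.05, Psmb10 between −0.22 and 0.06, and Psme2 between −0.13 and 0.02.

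TPM is corrected for length, so each inducible subunit can be set beside the constitutive subunit whose place it takes, within a library and without a test. Psmb9 was a small part of its pair with Psmb6 throughout. It made up 0.385% ± 0.006 of their summed TPM in DKO cells in media (SD, n = 2), 1.99% ± 0.17 in IRF2KO, 2.31% ± 0.21 in IRF1KO and 3.60% ± 0.10 in WT. Under IFNγ the same share was 1.91% ± 0.67 in DKO, 5.71% ± 0.26 in IRF2KO, 5.75% ± 0.80 in IRF1KO and 8.74% ± 0.60 in WT. Psmb6 itself stayed between group means of 771 and 885 TPM.

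Psmb8 was a large part of its pair with Psmb5. In media the share was 23.2% ± 1.49 in DKO, 53.7% ± 0.12 in IRF2KO, 36.3% ± 1.75 in IRF1KO and 40.1% ± 1.21 in WT. Under IFNγ it was 30.97% ± 0.74 in DKO, 61.8% ± 2.53 in IRF2KO, 38.8% ± 2.71 in IRF1KO and 48.4% ± 2.18 in WT. Psmb5 had group means between 249 and 293 TPM. Psmb10 made up 20.7% ± 0.21 of its pair with Psmb7 in DKO cells in media, 30.6% ± 7.68 in IRF2KO, 33.2% ± 4.50 in IRF1KO and 30.8% ± 4.28 in WT, so that the last 3 overlapped.

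**Figure D4:**
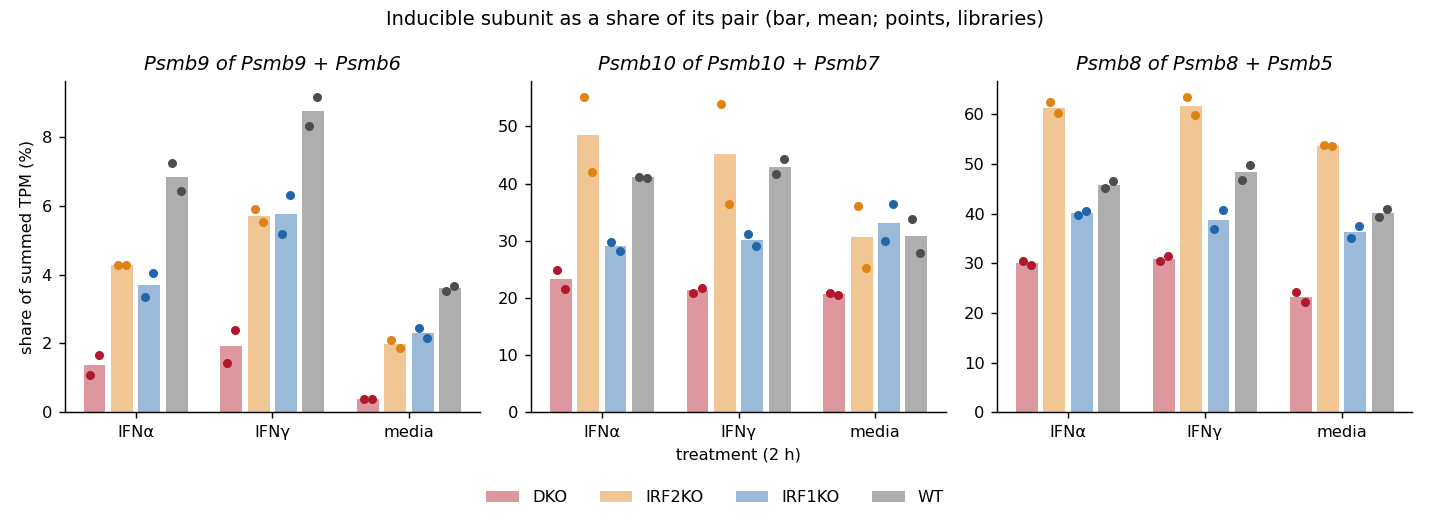
Share of the inducible subunit in the summed TPM of its pair (%), for Psmb9 with Psmb6, Psmb10 with Psmb7 and Psmb8 with Psmb5; bars are group means and points are libraries. Psmb8 exceeds the level of Psmb5 in the IRF2KO groups (53.7% to 61.8%), and Psmb9 stays below 10% of its pair in every library.

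None of a list of 40 other proteasome genes passed the threshold in these comparisons. Left out of it is Psme2b, the copy of Psme2 described below, which was called higher with IFNγ in WT and IRF1KO cells. Of the 40 genes, 0 were called in any of the 36 comparisons by limma, with or without the replicate block. An unadjusted p under 0.05 was found in 24 of 1440 tests (1.67%). The list holds the constitutive Psmb5, Psmb6 and Psmb7, 11 other subunits of the 20S core, 18 of the 19S cap, 5 assembly chaperones, and 3 other regulators of the core, among them Psme3, which encodes PA28γ. Its median stayed between −0.08 and 0.09 in the 36 comparisons, and single genes between −0.48 and 0.42. Between DKO and WT in media its median was 0.01, against −1.73 for the 5 members and 0.06 for all genes tested. There Psmb7 had the lowest value of the list (−0.33) and the assembly chaperone gene Psmg3 the highest (0.32).

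**Figure D5:**
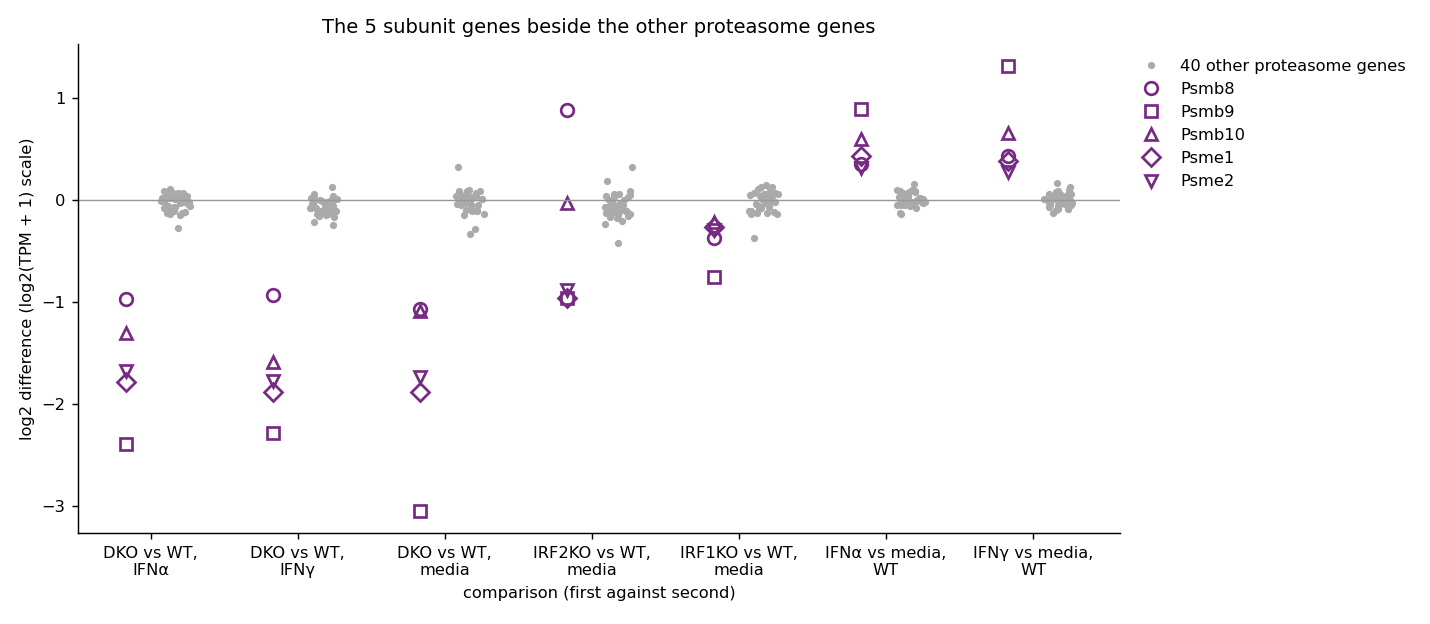
Log2 differences (log2(TPM + 1) scale) of the 5 subunit genes (open purple symbols, no error bars) and of 40 other proteasome genes (grey points) in 7 comparisons. Between DKO and WT the members lie between −3.05 and −0.93, while the grey points stay between −0.42 and 0.32 in the 7 comparisons.

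The neighbouring transporter genes encode the pump that carries the peptides into the endoplasmic reticulum. Tap2 averaged 2.38 ± 0.50 TPM in DKO, 8.36 ± 4.62 in IRF2KO, 35.2 ± 0.23 in IRF1KO and 40.7 ± 4.47 in WT cells in media. It was called lower in DKO than in WT in the 3 treatments (−3.60, −3.54 and −3.63 under IFNα, under IFNγ and in media), and in IRF2KO in media (−2.25, adjusted p = 4.0e-04). Tap1 averaged 7.83 ± 0.33 TPM in DKO and 15.4 ± 0.16 in WT cells in media (−0.89, adjusted p = 0.018), and −0.06 separated IRF2KO from WT. Tap1 was called higher with each interferon in each genotype, by 1.85 to 2.64 log2 units. Its values lay above those of Psmb9, with which it shares its start region, in each of these comparisons, a difference that was not tested.

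Psme2 has a near-identical copy, Psme2b, and 617 of the 807 words of 31 bases in the Psme2b transcript also occur in Psme2. Psme2b had 6.01 to 31.7 TPM, and the estimation step of the authors could split reads between the copies, so values of both are uncertain. Psme2b was called higher with IFNγ in WT (1.78, adjusted p = 0.011) and IRF1KO cells (1.51, adjusted p = 0.042), with 27.8 and 31.7 TPM under IFNγ against 6.01 and 10.4 TPM in media in WT. When the copies were summed, an alternative chosen after seeing the data, the 8 calls of Psme2 were kept, with −1.59 between DKO and WT in media.

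Promoter windows of RefSeq (GRCm38.p6), from 250 bases before to 50 after each RefSeq start, were found for the 5 genes and searched on both strands for the IRF element (GAAA, any 2 bases, GAAA), the GAS element TTCNNNGAA and an NF-kB type element (GGG, any 5 bases, CC). The RefSeq starts lie inside the GENCODE spans given above, 474 bases downstream of the first base of the span for Psmb8, 434 for Psmb9, 371 for Psme1, 52 for Psmb10, and 12 and 92 for the 2 starts of Psme2, so the windows of Psmb8, Psmb9 and Psme1 do not reach the GENCODE starts. The elements occur in 3.44%, 8.3% and 50.8% of the 32851 windows in the table. The windows of Psmb8 and Psmb9 are shown, without the 50 bases after the start, because Psmb8 was the member called higher in IRF2KO cells and Psmb9 the one that differed most in DKO cells, and the stretch of Psme1 because it holds the only IRF element among the members. Capitals mark a GAS element in Psmb8, at −97 to −89 from the start, and the IRF element in Psme1, on the minus strand at 10 to 19 bases after the start. Psmb9 held neither, and its window overlaps that of Tap1 on the other strand.
Psmb8, chr17:34197945-34198194, plus strand: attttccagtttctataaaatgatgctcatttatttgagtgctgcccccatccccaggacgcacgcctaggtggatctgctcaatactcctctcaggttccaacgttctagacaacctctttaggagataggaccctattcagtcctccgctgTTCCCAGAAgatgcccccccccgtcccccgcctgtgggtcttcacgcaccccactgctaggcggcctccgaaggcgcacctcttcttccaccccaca
Psmb9, chr17:34187331-34187580, minus strand: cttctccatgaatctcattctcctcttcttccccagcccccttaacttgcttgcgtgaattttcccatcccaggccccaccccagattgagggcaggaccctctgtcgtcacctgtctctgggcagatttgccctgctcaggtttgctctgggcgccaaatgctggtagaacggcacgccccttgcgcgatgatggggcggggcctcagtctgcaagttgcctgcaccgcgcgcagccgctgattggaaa
Psme1, chr14:55578493-55578522, plus strand: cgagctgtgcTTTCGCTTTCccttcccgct
Psmb10 held none of the 3 elements, and Psme2 held only the NF-kB type, which Psmb9 and Psme1 also hold. A match is a description of letters, and a missing match says only that these letters are not in this window.

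Over the 12 group means of log2(TPM + 1), the members were compared with 669 genes of at least 5 TPM on average and a range of at least 1 log2 unit. Pearson r is a description here, since the groups share genotypes and treatments. Psme1 and Psme2 were most like each other (0.991), followed by Tap2 (0.978) and Sp110 (0.968) for Psme1, and by Sp110 (0.972) and Erap1 (0.970), which encodes a peptide-trimming aminopeptidase, for Psme2. Psmb9 was most like Ube2l6 (0.928), which encodes an ISG15-conjugating enzyme, and then like Psme1 (0.918) and Psme2 (0.905). Psmb8 was most like Psmb10 (0.883), Tapbp (0.877), which encodes the peptide-loading chaperone tapasin, and Idnk (0.839). Psmb10 was most like Sp110 (0.892), Psmb8 (0.883) and Psme2 (0.881). The lowest r within the members was 0.546, between Psmb8 and Psme1.

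The 6 single libraries are set only against each other, with no test. Psmb8 had 368 TPM in IRF2KO and 228 in WT under IFNα (log2 difference 0.68), 263 in IRF2KO and 163 in WT under LPS (0.69), and 279 in IRF2KO and 149 in WT at 0 h (0.90). Psme1 had 43.0 TPM in IRF2KO and 106 in WT at 0 h (−1.28), and Psme2 had 105 and 219 (−1.05), so 2 of 5 members were at least 1 log2 unit lower there, as were 0.557% of genes. IFNα against 0 h took Psmb9 to 67.0 TPM against 20.8 in IRF2KO (1.64) and to 71.3 TPM against 32.3 in WT (1.12), and Psmb10 to 228 TPM against 91.6 in IRF2KO (1.30). At least 1 log2 unit higher were thus 2 of 5 members in IRF2KO and 1 of 5 in WT, where 1.81% and 1.6% of genes were. LPS against 0 h gave values between −0.29 and 0.82, the highest for Psme2 in IRF2KO (186 TPM under LPS and 105 at 0 h) and the lowest for Psmb9 in IRF2KO (16.8 and 20.8 TPM).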

How the data were processed

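RNA sequencing values of 30 libraries with the cell line label DC3.2 were analysed, 24 of them titled DC32R. The authors deposited 1 table of TPM values. The submitters' processing notes name bcl2fastq 2.20, Bowtie 0.12.2 and RSEM, and the builds mm10 and GRCm38, without giving each a role. The table has 41346 entries for 31427 symbols. Entries of a symbol were summed within the 24 replicated and, separately, within the 6 single libraries. Each of the 5 genes had 1 entry in the table, with values in both sets.

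TPM keeps no counts, so no count model could be used, and depth is unknown. Genes with 1 TPM or more in 2 or more replicated libraries were kept, 11842 in all. log2(TPM + 1) was modelled with limma 3.58.1 (R 4.3.3), with 12 group means, a trend in the prior variance and 12 residual degrees of freedom. Tests are two-sided, with Benjamini-Hochberg adjustment within each of 36 comparisons. Mutants that share a control, and interferons that share a media group, share its libraries.

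Libraries with the same number share a date-like code, per the labels' titles, so the numbers pair the samples. Same-numbered samples deviated together with r above 0.1 in 56 of 66 pairs of groups (median 0.233). Blocked values stand where they change a call or a count.

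The members and lists were chosen with earlier results of these data known. The 5 members are named in the comparisons they are described in. The other named genes are Irf1, Irf2, Tap1, Tap2, the constitutive counterparts, Psme3, list extremes, cell type markers, Psme2b and the 3 genes most like each member; Psme2b, Psme3, the extremes and the markers named were chosen after their values were seen. Other settings tried were a pseudocount of 0.1 or 5, keeping all genes or those that average 5 TPM or more, TMM scaling, the block, the compared groups alone, and 1 library left out. Python 3.11.15, numpy 2.4.6, pandas 2.3.3 and matplotlib 3.10.9 were used for tables and plots.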

Additional observations from a re-analysis of the deposited data

Results flagged for a closer look

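The difference in Psmb8 between lines with and without targeted IRF1 was larger where IRF2 was targeted too, by the interaction test given in the report. The targeting and other differences between the lines cannot be told apart. The difference between the DKO against IRF2KO value and the IRF1KO against WT value was −1.57 on the log2 scale in media, −1.57 under IFNα and −1.17 under IFNγ. These calls were all lost when only the groups of the treatment were in the fit. That under IFNγ also rested on single libraries (−1.23 to −1.11 with 1 library left out). In media Psmb8 averaged 87.4 ± 8.85 TPM in DKO, 339 ± 33.7 in IRF2KO, 142 ± 11.3 in IRF1KO and 184 ± 4.42 in WT cells (SD, n = 2 each).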

How the results depend on the processing

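Of 52 calls of members, 52 were kept with a pseudocount of 0.1, with 5 and with a mean of at least 5 TPM, 50 with TMM scaling and 46 without the filter. With the replicate block 52 were kept and 17 added: calls of interferon against media were 14 in place of 7, and the block moved the total of no other family of comparisons by over 1.5 times, though single comparisons within them moved by more, as given in the report. With only the compared groups in the fit, 22 were kept and 30 lost. Calls of interferon against media were then 4, of mutant against WT 12 in place of 19, of DKO against a single mutant 6 in place of 23, and of non-additivity 0 in place of 3, with the same log2 differences on fewer libraries. Leaving out 1 library at a time gave 5 to 10, 17 to 20, 18 to 24 and 2 to 3 calls in these 4 families, and 0 for IFNγ against IFNα and for responses that differ from WT. In such a fit the lone library of a group is assumed to vary like the other groups. TMM scaling ended the calls of Psme1 between IRF2KO and WT in media (−0.88, adjusted p = 0.069) and of Psme2 between DKO and IRF2KO under IFNα (−1.26, adjusted p = 0.064). No called value changed sign in any setting; of 108 values called in none, 29 did. The 5 single-library differences of at least 1 log2 unit stayed 5 at both other pseudocounts. The 2 libraries a group and the unknown depth limit the precision.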
